A study of Mus musculus with 46 samples.

Results

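The cytosolic nucleic acid sensors Zbp1, Ifih1, Ddx58, Dhx58 and Aim2 were followed together with Samhd1, Trex1 and Adar, which act on nucleotides or nucleic acids, across all groups of the MC-38 study. The 8 genes were taken by name from the 48795 genes of the expression table, and all 8 had a row in it. The rule used no measured value, but the genes were chosen with earlier results of these data known.

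Cells recognise foreign or misplaced nucleic acids in the cytosol with a small set of proteins. RIG-I (Ddx58) and MDA5 (Ifih1) are helicases that bind double-stranded RNA and signal through MAVS to type I interferon, while LGP2 (Dhx58) lacks the signalling domain and modulates both. ZBP1 binds left-handed double-stranded nucleic acid and engages RIPK3, a kinase of necroptosis, and AIM2 binds double-stranded DNA and assembles an inflammasome. TREX1 degrades cytosolic DNA, ADAR converts adenosine to inosine in double-stranded RNA, and SAMHD1 hydrolyses dNTPs and thereby restricts retroviruses. Most of these genes are themselves interferon-stimulated, and macrophages and other leukocytes are known to transcribe many of them.

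The data were FPKM values, fragment abundances scaled to transcript length and library size, from bulk RNA-seq of 46 samples in 8 groups, 43 of them tumors. MC-38 is a colon adenocarcinoma line of C57BL/6 origin, and the 3 samples of cultured cells came from this 1 line. All tumors grew under the skin after injection of MC-38 cells. In the antibody experiment, female C57BL/6NTac mice of 8 to 10 weeks gave 3 baseline tumors. A further 5 tumors came from isotype control mice and 5 from mice given PD-1 Ab at day 4 (1 dose), and again 5 and 5 at day 8 (2 doses). The PD-1 Ab was muDX400, which binds mouse PD-1 and was given at 5 mg/kg. In the genetic experiment, 10 PD-1cKO tumors were set against 10 tumors of WT littermates, labelled day 28. Day 4 and day 8 count from the first dose. The paper counts day 28 from tumor implantation and elsewhere gives an earlier day for these tumors, so the days are not on 1 scale. PD-1cKO mice carried Pdcd1 alleles with loxP sites around exons 2 and 3 and a tamoxifen-inducible Cre (creERT2) at ROSA26, a locus active in nearly all cell types, so the deletion was not restricted to T cells. Mice of both genotypes received tamoxifen at 40 mg/kg on 5 days.

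Read depth per sample is unknown, since FPKM retains none and the paper gives only a range of mapped reads over all samples. Isotype day 4 replicate 1 stood apart, with 54.6% of its FPKM on mitochondrial genes, and so did PD-1cKO replicates 4 and 8, whose profiles correlated at 0.883 and 0.846 with the rest of their group. Short noncoding RNAs held 30.2% to 66.5% of the FPKM in the genetic experiment, so levels there are not set directly against those of the other groups. Their median share was 54.0% in PD-1cKO and 45.3% in WT, so the 2 genotypes differed in it too. Pdcd1 measured 9.61 ± 4.51 FPKM in PD-1cKO and 3.30 ± 1.46 FPKM in WT (SD, n = 10 each). A value for the whole gene does not show whether exons 2 and 3 are missing, so it did not check the PD-1cKO label. The cultured cells carried almost no leukocyte transcripts, with 0.210 to 0.413 FPKM summed over 4 leukocyte markers. Epithelial markers were also low in them, at 0.591 to 0.781 FPKM over 6 genes, and Cdx2, a marker of intestinal epithelium, was listed at 0. Isotype day 8 tumors were the controls both for PD-1 Ab at day 8 and for the comparison with cultured cells, so those results share samples.

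In the GENCODE annotation of GRCm38, Samhd1 spans chr2:157097533-157135265, Zbp1 chr2:173206612-173218923, Ifih1 chr2:62595798-62646255, Ddx58 chr4:40203773-40239828, Dhx58 chr11:100694884-100704271 and Trex1 chr9:109057933-109059734, all on the minus strand. Aim2, at chr1:173350879-173466040, and Adar, at chr3:89715022-89753446, lie on the plus strand. All exonic bases of Trex1 (100%) are also annotated as exons of Atrip on the same strand, and 95.8% of its 50-base stretches recur in Atrip. Trex1 values are therefore uncertain, since the counting could split reads between both genes. Exons of Adar overlapped Chrnb2 on the opposite strand over 16.8% of their bases, in libraries made with a strand-specific kit.

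Promoter sequence was available from RefSeq (GRCm38.p6) for 6 of the 8 genes, without Zbp1 and Dhx58. These windows, from 250 bases before to 50 bases after each start site, were searched on both strands for GAAA followed after any 2 bases by GAAA, the core of the interferon-stimulated response element, and for TTCNNNGAA, the core of the gamma-activated site. The response element core was found for Ifih1 and Ddx58 and in 3.99% of all 27025 genes with a promoter entry. The activated site core was found for Samhd1 and Adar and in 9.55% of them. The 2 cores do not overlap in any of these 4 genes. The matches are shown because they differ between Samhd1 and the 2 RNA helicases, which also differed in level as described further on. Adar has a match to the same core as Samhd1 but did not reach an adjusted p under 0.01 in any PD-1 comparison (limma). The matches are only a description of the letters. They are written 5′ to 3′ along the gene's strand with the core in capitals.
Ifih1, from 33 bases after the start site, chr2:62646206-62646233, minus strand: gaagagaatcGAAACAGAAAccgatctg
Ddx58, from 3 bases after the start site, chr4:40239804-40239833, minus strand, core on the reverse strand: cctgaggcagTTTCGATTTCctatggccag
Samhd1, from 235 bases before the start site, chr2:157135313-157135341, minus strand: acaccaccctTTCGGAGAAacacaagggc
Adar, from 23 bases after an internal start site, chr3:89730730-89730758, plus strand: gggaagccttTTCAAGGAAacgaaagtga

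The 250 bases before the RefSeq start site of Samhd1, chr2:157135097-157135346 on the minus strand, are given in full. They are shown because Samhd1 was the gene that rose in both PD-1 settings. They were 65.6% G and C, beside a median of 52.4% (upper quartile 61.2%) over all promoter entries. They held 26 CpG sites, beside a median of 6 (upper quartile 16), and have the same core in capitals. The GENCODE gene reaches to chr2:157135265, so part of this stretch lies inside it, while the core lies before both starts.
Samhd1: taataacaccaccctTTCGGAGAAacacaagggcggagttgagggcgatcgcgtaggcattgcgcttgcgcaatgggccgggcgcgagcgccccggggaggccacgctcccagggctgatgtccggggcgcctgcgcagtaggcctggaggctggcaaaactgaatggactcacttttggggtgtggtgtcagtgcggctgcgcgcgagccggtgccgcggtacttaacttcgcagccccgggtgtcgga

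Per length, Samhd1, Ddx58 and Adar were the most abundant of the 8 genes in cultured MC-38 cells, and Zbp1 and Aim2 were nearly absent. Compared to cultured cells, isotype day 8 tumors showed 6 of the 8 genes risen at an adjusted p under 0.01, Zbp1 and Aim2 by the most. This share stands beside 20.2% of all 15199 genes tested that rose. In bulk tissue, a change in the number of cells of a type and a change of RNA per cell cannot be told apart.

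Among the sensors, Zbp1 measured 0.706, 1.30 and 0.807 FPKM in the 3 cultures and 48.6, 82.9, 105, 109.6 and 80.1 FPKM in the 5 isotype day 8 tumors. Every tumor lay far above every culture, and the difference was 6.35 on the log2(FPKM + 0.1) scale (SE 0.28, adjusted p = 1.06e-07, limma). Aim2 was at 0.0486, 0.0226 and 0.154 FPKM in culture and between 3.76 and 4.22 FPKM in these tumors, a log2 difference of 4.60 (SE 0.24, adjusted p = 3.93e-07) that the added 0.1 FPKM shrinks. LGP2 rose as well, with Dhx58 at 2.24, 2.42 and 2.44 FPKM in culture and 9.49 to 15.9 FPKM in tumors (log2 difference 2.45, SE 0.16, adjusted p = 2.05e-06).

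The 2 helicases that signal were already transcribed in culture. Ddx58 had 22.2, 21.2 and 22.0 FPKM in the cultures and 26.6, 35.1, 22.2, 32.6 and 27.7 FPKM in the tumors. Its groups barely separated, and the log2 difference of 0.39 did not pass (SE 0.14, adjusted p = 0.0418), although it did without isotype day 8 replicate 3 (adjusted p = 0.00316). Ddx58 also passed with array weights and with the correction for GC content described further on. Ifih1 rose from 4.13 to 4.79 FPKM in culture to 7.16 to 13.3 FPKM in tumors (log2 difference 1.14, SE 0.22, adjusted p = 0.00194), a call that was lost without culture replicate 1 or 2 (adjusted p of up to 0.0117).

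Of the remaining genes, Samhd1 measured 31.9, 31.2 and 31.7 FPKM in culture and 48.7, 54.9, 52.4, 68.9 and 51.9 FPKM in isotype day 8 tumors (log2 difference 0.80, SE 0.11, adjusted p = 0.000302). The tumor values all exceeded the culture values. Trex1 was at 3.24 to 4.46 FPKM in culture and 14.9 to 29.5 FPKM in tumors (log2 difference 2.37, SE 0.22, adjusted p = 1.92e-05). Adar differed by only 0.18 on the log2 scale (SE 0.14, adjusted p = 0.309), with 18.1 to 19.7 FPKM in culture and 16.8 to 26.1 FPKM in tumors, and its groups overlapped. Groups did not overlap for the other 7 genes, beside 26.3% of all genes tested that lay higher in every tumor. Leukocyte markers summed to 231 to 348 FPKM in the same tumors, and their part in these differences was not tested.

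Across the cultured cells and the 5 tumor groups of the antibody experiment, the cultured cells had the lowest mean of every gene. The group with the next lowest mean, isotype day 8 for both genes, overlapped them for Adar and barely cleared them for Ddx58. The antibody experiment gave the order isotype, baseline, PD-1 Ab for Samhd1, with means of 55.4 and 61.3 FPKM in the isotype groups, 68.2 FPKM at baseline, and 116 and 148 FPKM after 1 and 2 doses. The isotype groups and baseline overlapped, and so did both PD-1 Ab groups, but every PD-1 Ab value exceeded every baseline value. For Zbp1 both PD-1 Ab groups lay clear of baseline, at 158 ± 15.5 and 185 ± 21.9 FPKM against 115 ± 4.37 FPKM (SD, n = 5, 5 and 3). For Dhx58 they had 21.2 ± 2.55 and 24.6 ± 4.79 FPKM against 14.5 ± 1.90 FPKM at baseline, where only the lowest value after 2 doses, 16.6 FPKM, was within the baseline range. Ddx58 spanned only 28.9 to 35.9 FPKM over the 5 tumor group means of the antibody experiment, and no neighbours among them separated.

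**Figure D1:**
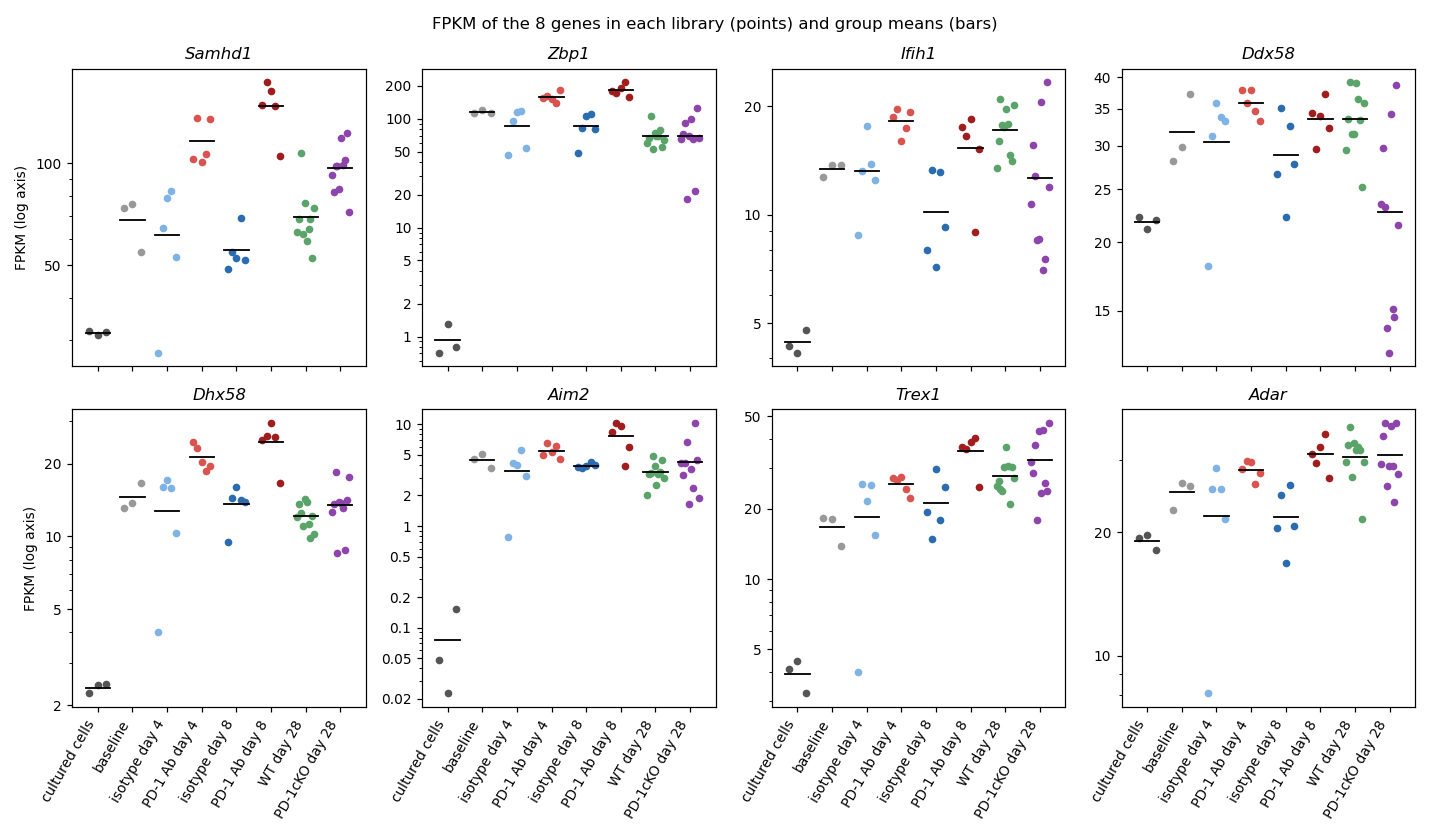
FPKM on log axes for each of the 8 genes in all 46 samples (points), by group, with bars at the group means. WT and PD-1cKO values are not on the scale of the other groups. Zbp1 and Aim2 were nearly absent from cultured cells, the mean of Samhd1 was highest after 2 doses among the groups of the antibody experiment, and 7 of 10 PD-1cKO tumors lay below every WT tumor for Ddx58.

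At day 4, after 1 dose of PD-1 Ab, none of the 8 genes passed in limma, and 0% of all 14556 genes did. At an unadjusted p under 0.05, 4 of the 8 genes differed, beside 6.15% of all genes tested. All 8 were higher on average in PD-1 Ab-treated tumors, with a median log2 difference of 0.79 beside 0.26 over all genes tested. Samhd1, Zbp1 and Dhx58 were higher in every treated tumor than in every isotype control, a pattern seen in 3.59% of all genes.

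Samhd1 measured 27.6, 64.5, 78.8, 83.1 and 52.7 FPKM in the isotype day 4 tumors and 103, 136, 101, 107 and 135 FPKM after PD-1 Ab. The log2 difference was 1.01 (SE 0.28, adjusted p = 0.384). Zbp1 differed by 0.98 (SE 0.27, adjusted p = 0.366), with 46.4 to 118 FPKM under isotype and 141 to 182 FPKM under PD-1 Ab, and Dhx58 by 0.90 (SE 0.36, adjusted p = 0.719), with 4.00 to 17.1 FPKM and 18.6 to 24.6 FPKM. Aim2 (0.86), Trex1 (0.72), Adar (0.50), Ifih1 (0.50) and Ddx58 (0.27) overlapped between groups, with adjusted p of 0.740 to 0.825.

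Isotype day 4 replicate 1, the mitochondria-rich sample, held the lowest isotype value of all 8 genes, for example 4.01 FPKM of Trex1 against 15.5 to 25.6 FPKM in the other 4. Without it the median log2 difference of the 8 genes was 0.38 instead of 0.79, beside -0.04 over all genes tested. The differences were then 0.79 for Zbp1, 0.75 for Samhd1, 0.53 for Dhx58, 0.40 for Aim2, 0.36 for Ifih1, 0.24 for Trex1, 0.17 for Adar and 0.10 for Ddx58, and no gene of the 8 passed. After removal of the dependence on GC content within each sample, the difference of Samhd1 was 0.77 (adjusted p = 0.0357) and that of Adar 0.16.

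At day 8, after 2 doses, 3 of the 8 genes rose, namely Samhd1, Zbp1 and Dhx58, and none fell. Among all 15062 genes tested, 8.25% passed and 6.69% rose. The median log2 difference of the 8 genes was 0.80, beside -0.04 over all genes tested. Samhd1 and Zbp1 rose by more than 2-fold, which 5.3% of all genes exceeded in either direction. The groups did not overlap for these 3 genes and Adar, beside 9.23% of all genes that lay higher in every treated tumor.

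SAMHD1, the dNTP hydrolase, gave the clearest change. Samhd1 was at 48.7, 54.9, 52.4, 68.9 and 51.9 FPKM in isotype day 8 tumors and at 149, 174, 164, 148 and 105 FPKM in PD-1 Ab-treated tumors. Even the lowest treated value, in replicate 5, exceeded the highest control by a wide margin. The rise was 2.65-fold (log2 difference 1.41, SE 0.14, adjusted p = 0.000806), from 55.4 ± 7.87 to 148 ± 26.3 FPKM (SD, n = 5 each), and it passed whichever sample was left out.

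Of the sensors, Zbp1 rose 2.24-fold (log2 difference 1.16, SE 0.19, adjusted p = 0.0025). Its treated values were 181, 172, 193, 217 and 159.7 FPKM, all above the control range of 48.6 to 109.6 FPKM. Dhx58 rose 1.80-fold (log2 difference 0.85, SE 0.17, adjusted p = 0.00617). Treated tumors had 25.1, 26.1, 29.5, 25.8 and 16.6 FPKM of Dhx58 and controls 9.49, 14.4, 15.9, 14.1 and 13.9 FPKM, so that replicate 5 only just cleared the controls. The Dhx58 call was lost when any of 8 of the 10 samples was left out, with an adjusted p of up to 0.0216. It was also lost with no filter, with median-of-ratios or upper-quartile scaling and with no variance trend. The same held for a replicate block and for all tumor groups in 1 fit.

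The signalling helicases did not pass. Ifih1 had 17.6, 16.5, 18.5, 8.95 and 15.3 FPKM after PD-1 Ab and 8.00, 13.3, 7.16, 13.1 and 9.26 FPKM under isotype, so 4 of 5 treated tumors lay above all controls and replicate 4 lay among them (log2 difference 0.59, SE 0.23, adjusted p = 0.077). Ddx58 measured 34.5, 29.6, 34.0, 37.3 and 32.3 FPKM after PD-1 Ab and 22.2 to 35.1 FPKM under isotype, with wide overlap (log2 difference 0.23, SE 0.12, adjusted p = 0.191). Aim2, the DNA sensor of the inflammasome, was at 8.34, 10.4, 9.65, 3.85 and 6.02 FPKM after PD-1 Ab and at 3.76 to 4.22 FPKM under isotype. Replicate 4 was again the treated tumor within the control range (log2 difference 0.86, SE 0.24, adjusted p = 0.0231), and without it Aim2 passed (adjusted p = 0.00336).

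Of the remaining nucleic acid enzymes, Adar showed a small but even difference. It measured 31.1, 29.6, 32.3, 34.7 and 27.2 FPKM after PD-1 Ab and 20.5, 24.7, 16.8, 26.1 and 20.7 FPKM under isotype, without overlap (log2 difference 0.52, SE 0.12, adjusted p = 0.0132). Trex1 was at 36.8, 36.1, 38.8, 40.4 and 24.9 FPKM against 14.9 to 29.5 FPKM, and replicate 5 lay within the controls (log2 difference 0.75, SE 0.19, adjusted p = 0.0165). Without PD-1 Ab replicate 5, Trex1 and Adar passed as well, for 5 of the 8 genes.

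Markers of several cell types moved at day 8. All 6 T-cell markers, 2 of 4 leukocyte markers, 5 of 7 macrophage and monocyte markers and 2 of 6 dendritic cell markers rose. So did 1 of 3 NK-cell markers (Klre1), 1 of 3 endothelial markers (Pecam1), 1 of 4 fat markers (Plin1) and 1 of 4 skeletal muscle markers (Acta1). None of the 4 B-cell markers passed in limma, with 0 at an unadjusted p under 0.05, and of 3 tested neutrophil markers Csf3r rose and S100a8 fell. T-cell markers summed to 7.67 to 17.8 FPKM under isotype and 35.2 to 146 FPKM after PD-1 Ab, and macrophage markers to 407 to 498 and 635 to 2229 FPKM. Endothelial markers summed to 14.3 to 19.0 FPKM under isotype and 20.2 to 68.2 FPKM after PD-1 Ab, and fat markers to 7.18 to 81.4 and 21.9 to 698 FPKM. PD-1 Ab replicate 5 had the lowest treated sum of each of these 4 summed lists, as it had the lowest treated Samhd1, Zbp1, Dhx58, Trex1 and Adar. It had the highest treated sum of skeletal muscle markers, 61.5 FPKM. The part of these cell types in the differences was not tested.

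In PD-1cKO tumors the 8 genes split. Samhd1 rose, Ddx58 fell, and the other 6 did not pass. Among all 15075 genes tested, 21.3% passed, 8.78% rising and 12.6% falling, so 2 of 8 is close to the background. The median log2 difference was 0.07 for the 8 genes and -0.20 over all genes tested. All 6 T-cell markers rose in the same tumors, as did 3 of 7 macrophage and monocyte markers, the neutrophil markers S100a8 and Csf3r and the fibroblast markers Col1a1 and Lum. T-cell markers summed to 9.43 to 37.4 FPKM in WT and 23.5 to 94.4 FPKM in PD-1cKO, and fibroblast markers to 350.1 to 793 and 777 to 3487 FPKM. Their part in the differences of the 8 genes was not tested.

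Samhd1 ran from 52.7 FPKM through a median of 66.3 to 107 FPKM in WT tumors and from 72.1 through 98.5 to 123 FPKM in PD-1cKO tumors. Its 2 groups overlapped. In WT, replicate 3 held 107 FPKM while the other 9 stayed at or below 76.6 FPKM. PD-1cKO replicate 10, at 72.1 FPKM, also lay below WT replicates 5 and 10, at 76.6 and 74.0 FPKM. The rise was 1.40-fold (log2 difference 0.49, SE 0.12, adjusted p = 0.00482), from 69.5 ± 15.0 to 97.1 ± 15.7 FPKM (SD, n = 10 each). WT replicate 3 also had the highest WT sums of T-cell markers, 37.4 FPKM, and of macrophage markers, 658 FPKM. The call was lost without PD-1cKO replicates 4 and 8 (log2 difference 0.47, adjusted p = 0.0115) and without WT replicate 6 (adjusted p = 0.0104).

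RIG-I moved the other way. Ddx58 was between 25.2 and 39.2 FPKM in WT tumors, with a median of 33.5, and between 12.6 and 38.7 FPKM in PD-1cKO tumors, with a median of 22.4. It fell by 0.65 on the log2 scale (SE 0.18, adjusted p = 0.00897), and 7 of 10 PD-1cKO tumors lay below every WT tumor. Ifih1 followed a like course without passing, from 13.5 through 17.6 to 21.0 FPKM in WT and from 7.01 through 11.3 to 23.4 FPKM in PD-1cKO (log2 difference -0.54, SE 0.19, adjusted p = 0.0287), also with 7 of 10 PD-1cKO tumors below every WT tumor. PD-1cKO replicates 2, 6 and 9 held the most of both helicases within their group, with Ddx58 at 29.7, 34.3 and 38.7 FPKM. The Ddx58 call was lost in 16 of the 20 fits that left out 1 tumor (highest adjusted p = 0.019), and without PD-1cKO replicates 4 and 8 (log2 difference -0.51, adjusted p = 0.034). This call was also lost with scaling to the summed FPKM of protein-coding genes, with no filter and with no variance trend.

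Zbp1 and Aim2 were set by the same 2 tumors in opposite directions. Zbp1 had medians of 68.0 FPKM in WT and 68.1 FPKM in PD-1cKO, and PD-1cKO replicates 4 and 8 held 18.2 and 21.7 FPKM while the other 8 ranged from 64.6 to 126 FPKM. Aim2 was at 6.75 and 10.4 FPKM in those 2 tumors and at 1.64 to 4.49 FPKM in the other 8. The log2 difference of Zbp1 was -0.18 (SE 0.28, adjusted p = 0.603) and turned to 0.22 without them (adjusted p = 0.253). In replicates 4 and 8, leukocyte markers summed to 640.3 and 658 FPKM, T-cell markers to 73.5 and 94.4 FPKM and fibroblast markers to 3487 and 3104 FPKM, the 2 highest sums of each list in the group, and protein-coding genes held the least FPKM. The part of these features was not tested. The log2 difference of Aim2 was 0.16 (SE 0.26, adjusted p = 0.631) and turned to -0.13 without them (adjusted p = 0.636). Dhx58 (0.13, adjusted p = 0.442), Trex1 (0.18, adjusted p = 0.373) and Adar (0.01, adjusted p = 0.926) did not pass either, with SE of 0.11 to 0.16.

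**Figure D2:**
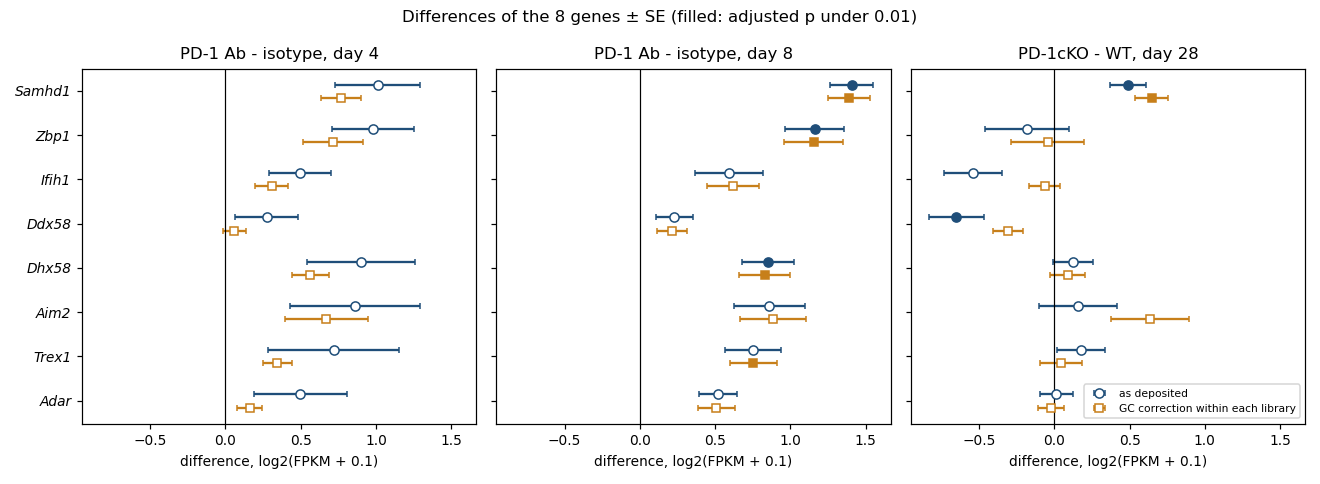
Differences in mean log2(FPKM + 0.1) ± SE for the 8 genes in the 3 PD-1 comparisons, as deposited (circles) and after removal of the GC dependence within each sample (squares), with filled symbols at an adjusted p under 0.01. Samhd1 lay at 1.41 at day 8 and 0.49 in PD-1cKO, and Ddx58 in PD-1cKO moved from -0.65 to -0.31 with the GC correction.

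Differences in the PD-1cKO experiment followed the base composition of the transcripts. Across 15022 genes, the PD-1cKO difference and the GC content of the longest transcript gave a Spearman rho of 0.36. The rho was 0.0507 at day 8 of PD-1 Ab, 0.257 at day 4 and 0.229 for isotype day 8 tumors against culture. The genes are not independent replicates. The median PD-1cKO difference climbed from -0.47 in the 20% of genes poorest in GC to 0.07 in the richest 20%. Ifih1 and Aim2, at 42.8% GC each, belonged to the poorest 20%, Ddx58 (46.6%) to the next, Samhd1 (49.3%) and Zbp1 (51.0%) to the middle, Adar (53.4%) and Dhx58 (53.9%) to the one above, and Trex1 (57.8%) to the richest.

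With each sample centred within 20 bins of GC content, an alternative added after the data were seen, Samhd1 still rose in PD-1cKO tumors (log2 difference 0.65, SE 0.11, adjusted p = 0.000994). Ddx58 no longer passed (log2 difference -0.31, SE 0.10, adjusted p = 0.0197), and the Ifih1 difference shrank to -0.06 (adjusted p = 0.632). At day 8 the same correction left Samhd1 at 1.39, Zbp1 at 1.15 and Dhx58 at 0.83. Within single tumors, the deviation from the mean WT profile correlated across genes with GC content at between -0.283 and 0.618 in PD-1cKO and between -0.405 and 0.376 in WT. PD-1cKO replicates 6 and 9, with a rho of -0.0325 and -0.283, were those with the most Ddx58 and Ifih1. Replicates 4 and 8, with the next lowest rho of 0.149 and 0.143, did not follow this order, at 13.98 and 14.64 FPKM of Ddx58 and 8.50 and 7.52 FPKM of Ifih1. Nor did replicate 10, with the highest rho of 0.618. It had 21.5 FPKM of Ddx58 and 11.9 FPKM of Ifih1, more of both than replicates 5 and 7, with a rho of 0.528 and 0.459. Whether base composition had a part in these differences, through the libraries or through the tumors, was not tested.

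**Figure D3:**
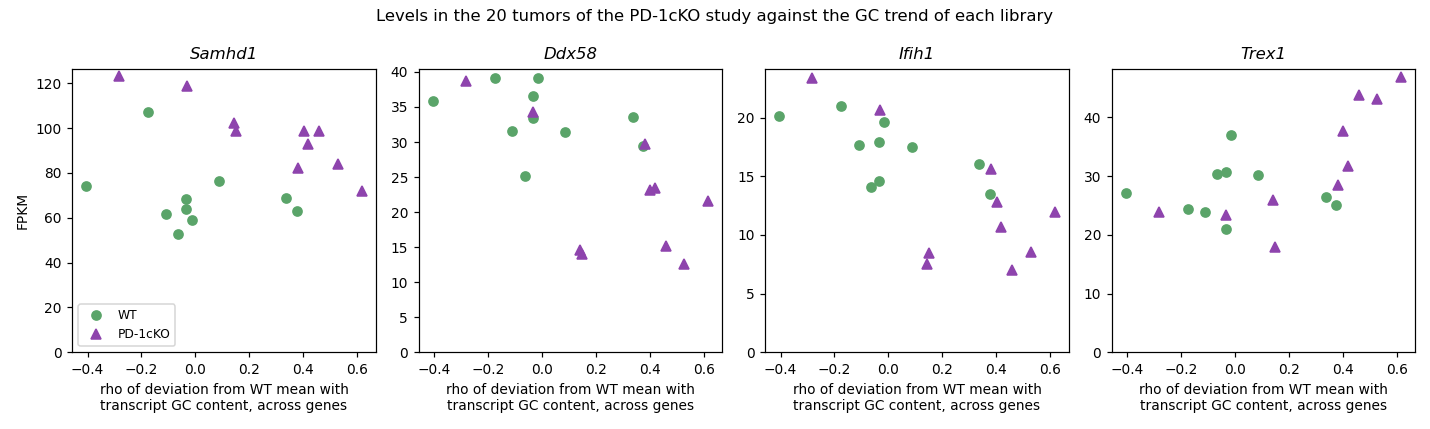
FPKM of Samhd1, Ddx58, Ifih1 and Trex1 in the 10 WT and 10 PD-1cKO tumors against each sample's Spearman rho, across genes, between its deviation from the mean WT profile and transcript GC content. Among PD-1cKO tumors, Ddx58 and Ifih1 were highest in those with a rho of -0.283 and -0.0325, while those with 0.149 and 0.143 had 13.98 and 14.64 FPKM of Ddx58. Trex1 reached 46.9 FPKM at a rho of 0.618 in PD-1cKO and 37.0 FPKM at a rho of -0.0144 in WT.

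The labels offer no batch for the genetic experiment. Sample identifiers in the descriptions form 3 numerical runs. The lowest holds 7 PD-1cKO and 0 WT tumors, the middle one 1 and 9, and the highest 2 and 1, so genotype and run can hardly be told apart. With the run as a covariate, Samhd1 differed by 0.49 (adjusted p = 0.107) and Ddx58 by -0.80 (adjusted p = 0.0679), and 0 genes of the whole table passed.

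The 2 PD-1 settings were compared in 1 fit as the day 8 antibody difference minus the PD-1cKO difference. None of the 8 genes passed in limma, beside 0.0975% of all 16404 genes, and 7 of 8 had an unadjusted p under 0.05, beside 15.8% of all genes. All 8 differences were positive, from 0.51 for Adar to 1.34 for Zbp1, and the median over all genes tested was 0.23. Samhd1 came nearest to passing, with a log2 difference of 0.92 (SE 0.20, adjusted p = 0.0276), and the others had adjusted p of 0.101 to 0.385. The settings also differed in mouse line, time and libraries, which cannot be told apart from the treatment here.

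Samhd1 and Ddx58 were set against each other as a ratio within each sample, which needs no scaling between samples. The ratio does not remove the dependence on GC content, and with the GC correction Ddx58 moved from -0.65 to -0.31 in PD-1cKO. This pair was chosen after its values were seen, so the ratio is a description. Samhd1 FPKM divided by Ddx58 FPKM was 1.44 to 1.47 in cultured cells, 1.47 to 2.62 at baseline, 1.52 to 2.45 in isotype day 4, 1.56 to 2.36 in isotype day 8 and 1.51 to 2.74 in WT tumors. It was 2.66 to 4.06 after 1 dose of PD-1 Ab, 3.26 to 5.88 after 2 doses and 2.77 to 7.05 in PD-1cKO tumors. All 5, 5 and 10 tumors of the PD-1 settings thus lay above all of their controls. A ratio to Ddx58 higher in every treated than in every control tumor was found for 1.32% of all genes at day 4, 4.33% at day 8 and 1.52% in PD-1cKO.

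**Figure D4:**
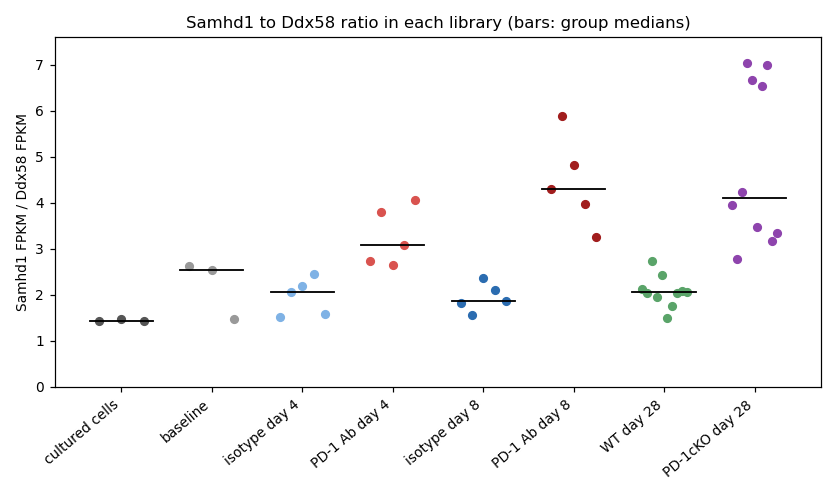
Ratio of Samhd1 FPKM to Ddx58 FPKM in each of the 46 samples (points), by group, with bars at the group medians, on a linear axis from 0. Medians were 1.87 in isotype day 8 and 4.31 in PD-1 Ab day 8 tumors, and 2.06 in WT and 4.10 in PD-1cKO tumors. The ratios are not corrected for GC content.

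The genes whose levels most resembled those of each member were sought by Pearson's r over the 43 tumors after group means were removed, among 13228 genes. Samhd1 was most like Ifng (r = 0.863), which encodes the T-cell cytokine interferon gamma, and Tigit (r = 0.859), an inhibitory receptor of T cells. Zbp1 was most like Cxcl10 (r = 0.96), an interferon-induced chemokine, and Dhx58 most like Oasl1 (r = 0.904). Ifih1 followed Eif2ak2 (r = 0.946), the RNA-activated kinase PKR, and Ifit2 (r = 0.921). Ddx58 followed Rnf219 (r = 0.924) and Etnk1 (r = 0.922), Aim2 followed Ermard (r = 0.838), Trex1 followed Yif1b (r = 0.931) and Adar followed Zfp335 (r = 0.939) and Trim25 (r = 0.937). Over the 40 tumors without the 3 that stood apart, the gene most alike changed for 7 of the 8, to Cd274 for Samhd1 (r = 0.873), Irgm2 for Zbp1 (r = 0.879), Irf7 for Dhx58 (r = 0.783), Etnk1 for Ddx58 (r = 0.90), Gm15832 for Aim2 (r = 0.756), Tor2a for Trex1 (r = 0.847) and Stat2 for Adar (r = 0.866), while Eif2ak2 remained so for Ifih1 (r = 0.934). The points share libraries and base composition, and no p is attached. Ddx58 and Ifih1 went together (r = 0.818, and 0.771 over the 40 tumors without the 3 that stood apart), whereas Ddx58 and Trex1 gave 0.126 over all tumors and -0.56 over those 40.

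The wider pathway was read from 66 other genes in 7 lists. At day 8 of PD-1 Ab, 15 of the 64 tested rose and 0 fell, 23.4% beside the 8.25% of all genes, with a median log2 difference of 0.60. Among adaptors and kinases of RNA sensing, 3 of 11 rose, namely Ikbke, a kinase that activates IRF3 (1.74, SE 0.23, adjusted p = 0.00101), Irf7, a transcription factor for interferon genes (0.97, adjusted p = 0.00723), and Trim25, a ubiquitin ligase of RIG-I (0.54, adjusted p = 0.00584). None of the 12 genes of DNA sensing and the inflammasome passed in limma, although 10 of them had an unadjusted p under 0.05, beside 39.7% of all genes. Of the effectors of double-stranded RNA, 2 of 9 rose, the oligoadenylate synthetase Oas3 (1.27, adjusted p = 0.00183) and its relative Oasl2 (0.90, adjusted p = 0.00392).

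Ripk3, the partner kinase of ZBP1, was the 1 of 5 genes of the ZBP1 death pathway that rose at day 8 (0.80, adjusted p = 0.00669). It rose in PD-1cKO tumors too (0.78, SE 0.12, adjusted p = 0.00061), where all 10 lay above every WT tumor, a pattern seen in 0.643% of all genes. Of the nucleases, Dnase1l3, which digests extracellular DNA, rose at day 8 (2.19, adjusted p = 0.000885). The restriction factors Slfn8 (1.17, adjusted p = 0.00386), Slfn2 (0.97, adjusted p = 0.00653) and Trim30a (1.10, adjusted p = 0.00721) made 3 of 9. The interferon list held 5 of 11, among them Ifng (2.52, adjusted p = 0.00106) and Stat2, a transcription factor of the type I interferon signal (1.21, adjusted p = 0.00123).

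In PD-1cKO tumors, 7 of the 63 tested pathway genes rose and 3 fell, 15.9% beside 21.3% of all genes, with a median of -0.01. Besides Ripk3, those that rose were the lysosomal nuclease Dnase2a (0.95, adjusted p = 0.00145), Nlrx1 (0.69, adjusted p = 0.00109), Ikbke (0.98, adjusted p = 0.0027), Irf3 (0.43, adjusted p = 0.00693), Gsdmd, the pore former of pyroptosis (0.37, adjusted p = 0.00596), and Ifng (1.02, adjusted p = 0.00692). The apoptosis initiator Casp8 (-0.71, adjusted p = 0.00243), the inflammasome protease Casp1 (-0.66, adjusted p = 0.00777) and Rnaseh2b, a subunit of the enzyme that removes RNA from hybrids with DNA (-0.86, adjusted p = 0.0017), fell. Irf7 did not pass in PD-1cKO (0.04, adjusted p = 0.872) and was named here after its value was seen.

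**Figure D5:**
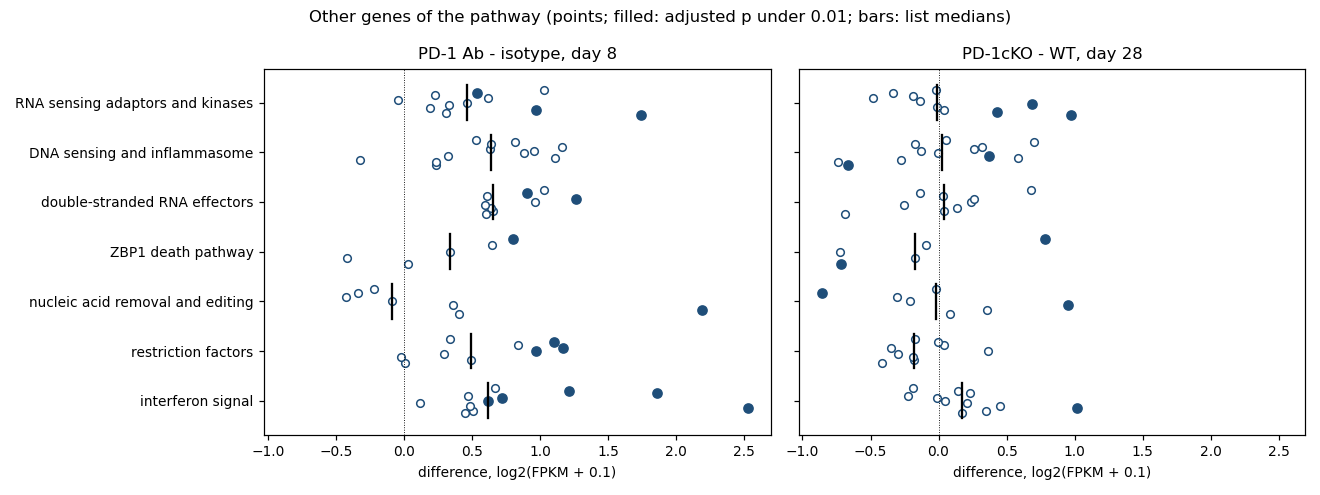
Differences in mean log2(FPKM + 0.1) of the other pathway genes (points, filled at an adjusted p under 0.01) by list, with bars at list medians, for PD-1 Ab at day 8 and for PD-1cKO. At day 8 all 15 genes that passed lay to the right of 0, and in PD-1cKO 7 lay to the right and 3 to the left.

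At day 4 none of the 63 tested pathway genes passed in limma (0% of all genes did), with a median log2 difference of 0.56. Between the 2 PD-1 settings none of 64 passed, and the median difference was 0.58. From cultured cells to isotype day 8 tumors, 44 of 63 rose and 2 fell, 73% beside the 37% of all genes that passed, with a median of 1.48. The DNA sensing list, with 10 of 12, was led by Tmem173, which encodes STING (2.43, adjusted p = 1.64e-08), the inflammasome adaptor Pycard (6.23, adjusted p = 1.64e-08) and Ifi205 (6.43, adjusted p = 1.67e-08). Of the effectors of double-stranded RNA, 8 of 9 rose, led by the oligoadenylate synthetases Oas1g (6.47, adjusted p = 3.38e-08), Oas1a (5.74, adjusted p = 5.72e-08) and Oas2 (5.60, adjusted p = 1.11e-07). Irf7 (5.25, adjusted p = 1.38e-07), Nlrx1 (1.39, adjusted p = 0.000105) and Rnf135 (1.15, adjusted p = 0.000194) led the RNA adaptors, with 5 of 10.

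In the same comparison, Ripk3 (4.14, adjusted p = 7.87e-08) and Casp8 (0.64, adjusted p = 8.27e-05) rose in the ZBP1 death pathway. The restriction factors, with 8 of 9, were led by Slfn2 (0 to 0.0848 FPKM in culture, 27.0 to 42.2 FPKM in tumors), Slfn8 (2.62, adjusted p = 3.6e-06) and Apobec3 (0.89, adjusted p = 4.14e-05). The interferon list, with 10 of 11, was led by Usp18 (3.81, adjusted p = 5.32e-07), Irf9 (2.42, adjusted p = 8.87e-07) and Irf1 (1.91, adjusted p = 1.08e-06). Among the nucleases Dnase1l3 rose, from a mean of 0.0033 FPKM in culture to 7.29 ± 2.55 FPKM (SD, n = 5) in tumors (adjusted p = 1.95e-07). Mavs, the adaptor of RIG-I and MDA5, fell by 0.38 on the log2 scale (adjusted p = 0.00361), and so did Rnaseh2c, by 0.96 (adjusted p = 0.000936).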

How the data were processed

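The authors sequenced ribosome-depleted total RNA (TruSeq stranded kit, paired ends), aligned it to the mouse B38 genome with OSA in Omicsoft Array Studio and deposited FPKM per gene. Read counts are not used here, so depth per sample and counting error are unknown. Each sample took its group from its label. Values were analysed as log2(FPKM + 0.1) for genes averaging 0.5 FPKM or more in any compared group, by limma 3.58.1 (R 4.3.3, moderated variances with a mean trend) on the compared groups alone, with Benjamini-Hochberg adjustment over all genes tested. A gene passed at an adjusted p under 0.01, and folds are on the log2(FPKM + 0.1) scale. The legend of the paper's heat maps describes each row as an individual animal, but the labels do not say that replicates are separate animals. The p-values measure the spread between these samples. The fit was tested on simulated data with 200 genes changed.

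The 8 genes, the pathway lists and the marker lists were chosen with earlier results of these data known. Named besides the 8 genes were, in each list, the 3 passing genes with the smallest adjusted p and those that fell, and for each of the 8 the most alike genes. Exceptions are named as such. 1 gene that this rule names is not reported here. Annotation was GENCODE on GRCm38, matched for 99.3% of gene IDs, and promoters came from RefSeq. Alternatives were another pseudocount, filters, scalings, array weights, no trend, a replicate block, all tumors in 1 fit, the run of identifiers, each sample left out and, added after the data were seen, a GC correction and removal of 3 samples that stood apart. Descriptions used Python 3.11.15 with numpy 2.4.6 and pandas 2.3.3, and figures matplotlib 3.10.9.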

Additional observations from a re-analysis of the deposited data

Results flagged for a closer look

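The 48 sets of values (8 genes in the 6 groups with 5 or 10 samples) share samples, so they are not independent of each other. In 8 of them, a sample was separated from the others by a gap that is large for the range of its group. Chance alone gives about 1 in 20 such sets. Isotype day 4 replicate 1 accounted for 3 of the 8, with 18.1 FPKM of Ddx58, 4.01 FPKM of Trex1 and 8.09 FPKM of Adar, each the lowest of its group. PD-1 Ab day 8 replicate 5 was low for Dhx58, at 16.6 FPKM, and for Trex1, at 24.9 FPKM, while PD-1 Ab day 8 replicate 4 was low for Ifih1, at 8.95 FPKM. Isotype day 8 replicate 1 was low for Dhx58, at 9.49 FPKM. WT replicate 3 was high for Samhd1, at 107 FPKM. Marker sums of these samples were given with the comparisons for WT replicate 3 and PD-1 Ab replicate 5, and the cause of the separations was not tested.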

How the results depend on the processing

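Depth could not be weighed, since FPKM carries no counts. The number of the 8 genes that passed was 3 at day 8, 7 with array weights, 1 with all tumor groups in 1 fit and 2 to 5 with each sample left out. In PD-1cKO it was 2, and it was 1 with no filter, with scaling to protein-coding genes, with no trend and with GC correction, 0 with the run as covariate and without the samples that stood apart, and 0 to 3 with each sample left out. Between the settings it was 0, 6 with array weights and 0 to 1 with each sample left out. It stayed at 0 at day 4 and at 5 to 7 for tumors against culture. Directions turned only in PD-1cKO, for genes that did not pass. Zbp1 was at 0.10 with array weights, 0.22 without the samples that stood apart and -0.30 to 0.0099 with each sample left out. Dhx58 was at -0.0027 and Adar at -0.16 with the run as covariate. Adar was at -0.022 with GC correction and -0.041 to 0.054 with each sample left out, and Aim2 at -0.13 without the samples that stood apart and -0.0057 to 0.28 with each left out. The causes were not tested.

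Replicate numbers did not pair the samples: over all genes, at most 1 pair per comparison correlated above 0.1. With the replicate block, 0 of the 8 genes passed in PD-1cKO (Samhd1 adjusted p = 0.0199), and Dhx58 was lost at day 8 (adjusted p = 0.0154).

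Over all genes, 1243 passed at day 8, 342 with the block, 578 with no filter and 5221 with array weights. In PD-1cKO 3217 passed, 1893 with no filter, 1883 with the block, 1658 without the samples that stood apart and 0 with the run. For tumors against culture 5621 passed, 2733 with the block and 8948 with array weights. Between the settings the count was 16, and 1 to 938 over the alternatives, and at day 4 it was 0 and at most 39. Of the PD-1cKO calls, 41.1% were higher, and 53.0%, 54.3%, 58.9% and 64.3% with median-of-ratios, upper-quartile, protein-coding and GC scaling. At day 8, 81.1% of calls were higher, and 52.1% with array weights. Zbp1 at day 8 was lost only with all tumor groups in 1 fit (adjusted p = 0.0156).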
